A study of Caenorhabditis elegans with 10 samples.

Results

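The transcriptome of GMC101, a Caenorhabditis elegans strain that expresses the human Aβ1-42 peptide in body wall muscle, was compared with that of the control strain CL2122 after 24 h of induction. Every gene of the deposited 24 h table was taken, 21915 genes of the 22554 that have a value at 24 h or 8 h. GMC101 carries Aβ1-42 under the promoter and 3′ end of unc-54, the major body wall myosin gene, with a GFP marker driven by the promoter of the intestinal metallothionein gene mtl-2. CL2122 carries the empty unc-54 vector and the same mtl-2 marker, so both strains hold unc-54 promoter copies and intestinal GFP. Both were synchronized, grown on OP50 bacteria to young adults at the lower culture temperature and then warmed for 24 h, so the heat shift is common to the strains. Of the 10 labelled samples of the series 6 are of this time, 3 for each strain, and the other 4 were taken at 8 h. The table holds 1 value per gene and strain, with no replicate column, and how the samples were combined is not stated.

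Aβ is the peptide that forms the plaques of Alzheimer's disease. In worms it is made from a transgene, and in muscle it aggregates and slowly paralyses the animal. An adult hermaphrodite is largely a reproductive animal. Its intestine makes yolk proteins (vitellogenins), its germ line fills oocytes with maternal RNA, its epidermis renews an adult set of cuticle collagens, and its intestine meets the bacteria it eats with lectins, lysozymes and detoxifying enzymes. RNA of the whole worm mixes all of these tissues, so a lower value may come from fewer cells of a type or from less RNA per cell, which cannot be told apart.

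The labels give the stage as L1, the first larva, whereas the study's methods describe young adults. The values went against the label. Adult collagen col-19, the vitellogenins and 45 genes for the making of oocytes and eggshells were all detected above the minimum level set here. The sequences of Aβ and GFP are not rows of the table, so expression of the transgenes was not measured here, and reads from the 3′ end of the transgene cannot be told apart from those of the native unc-54.

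The depth was 25283085 reads on genes in GMC101 and 24583097 in CL2122, so that 3 reads, the least treated as detectable, correspond to 0.119 and 0.122 CPM (counts per 1e6 reads on genes). The values are normalized counts, which are reads brought to a shared effective library size, and the whole reads were recovered from them. A gene was called measured where its mean over the strains reached 50 normalized counts, and called higher or lower at a ratio of 2 between the strains. Log2 ratios are GMC101 over CL2122, and each carries a 95% Clopper-Pearson counting interval, given in square brackets for the genes where it matters most. Such an interval covers counting error only. A value in parentheses after a gene or list, or one at which it stood, is its log2 ratio or the median of these. With 1 value per strain there is no spread between replicates and no test, so n = 1 per strain throughout and every ratio compares these deposited values, not the conditions.

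Of the 12268 measured genes, 772 (6.29%) were higher and 1155 (9.41%) lower in GMC101, 1927 (15.7%) in all. The counting interval lay wholly past the ratio of 2 for 555 genes on the higher side (4.52%) and 684 on the lower side (5.58%). The rises were larger than the falls. Of the higher genes, 303 reached a ratio of 4 and 31 a ratio of 16, against 160 and 3 of the lower genes. The median log2 ratio of all measured genes was 0.03. Genes higher in GMC101 made up 40.1% of the calls, and with the libraries scaled to their total reads they were 27.2%, 593 higher against 1590 lower, since that scaling moved the median gene by -0.19. The median log2 ratio rose with the level. It was -0.17 between 50 and 100 normalized counts, 0.16 between 5000 and 20000, and 0.41 from 20000 up. Medians of lists of abundant genes are to be read beside this trend. Calls in both directions were most frequent at low levels, but the share of higher calls did not fall steadily with level. Between 100 and 200 normalized counts 9.82% of 1598 genes were higher and 15.4% lower, and between 200 and 500 counts 7.01% of 2097 genes were higher and 15.2% lower. Between 1000 and 2000 counts 2.55% of 2002 genes were higher and 3.45% lower, and between 5000 and 20000 counts 5.45% of 808 genes were higher and 2.23% lower.

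**Figure D1:**
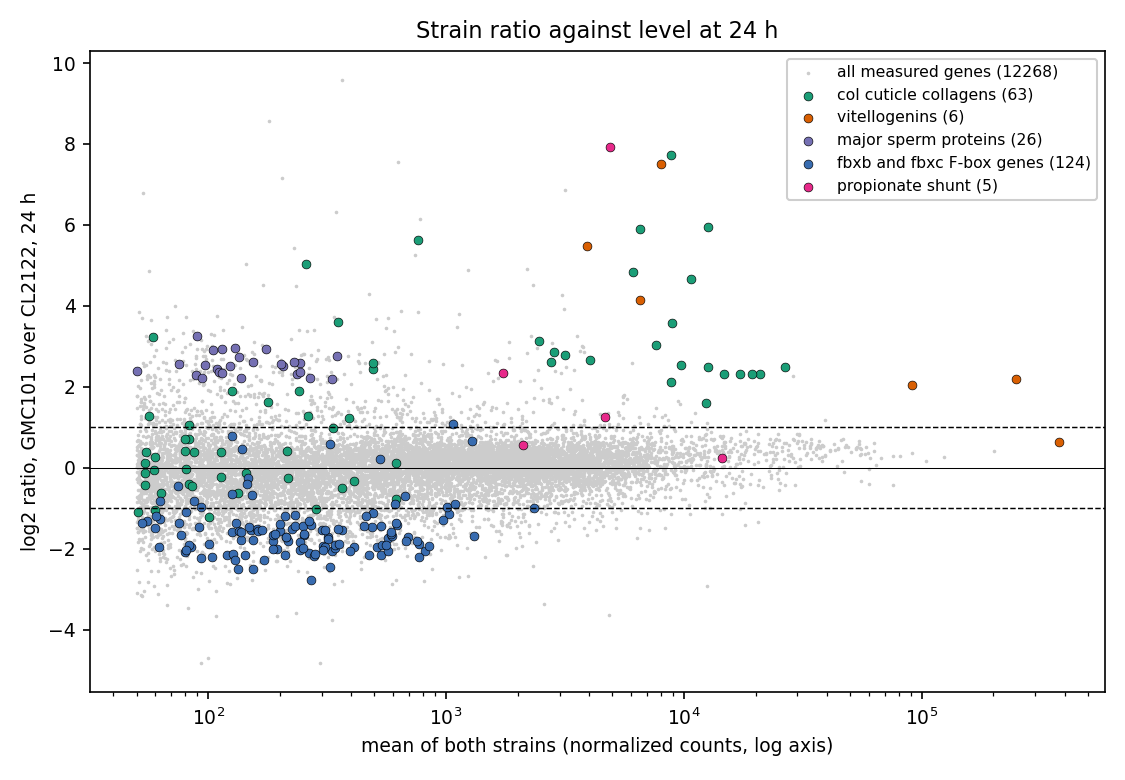
Log2 ratio of GMC101 over CL2122 at 24 h for each of the 12268 measured genes, against its mean normalized counts on a log axis, with dashed lines at a ratio of 2. The 26 measured major sperm proteins form a compact group between 2.20 and 3.26, the col collagens and vitellogenins reach far above them at high levels, and the fbxb and fbxc genes lie mostly below the lower line.

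A few secreted products took a larger share of the library in GMC101. The 10 genes that gained most made up 5.56% of the reads in GMC101 against 2.78% in CL2122, and they included 3 vitellogenins (vit-6, vit-2 and vit-5) and 4 collagens (col-140, col-119, col-122 and col-101). The others were unc-54, the elongation factor gene eef-1A.1 and hrg-7, which encodes a secreted protease-like protein of heme signaling. The 10 genes that lost most made up 0.912% of the reads in GMC101 against 1.68% in CL2122. Among these were genes of digestion and secretion, namely the aspartic protease genes asp-1 and asp-6, the cathepsin B gene cpr-1 and the chitinase gene cht-1. The others were the galectin gene lec-2, the caveolin gene cav-1, the endoplasmic reticulum chaperone genes crt-1 and pdi-2, the alcohol dehydrogenase gene sodh-1 and T22F3.11. Of the losses, lec-2 (-1.34), cht-1 (-1.41), cav-1 (-1.16) and cpr-1 (-1.02) were called, together with T22F3.11, described with its chromosomal neighbors. The loss of asp-1 was large in reads and small as a ratio (-0.43).

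Yolk genes were higher in GMC101. Vitellogenins are lipid carriers that the intestine secretes and oocytes take up, and 5 of the 6 genes were called higher, with a median of 3.17 and 3.94% of all reads in GMC101 against 1.80% in CL2122. The genes rose very unequally. vit-6 (WBGene00006930), at 8261134 to 8266462 of chromosome IV, had 410252 normalized counts in GMC101 against 89493 in CL2122, a log2 ratio of 2.20 [2.19 to 2.21]. vit-5 had 146875 and 35441, a log2 ratio of 2.05. The largest ratios belonged to the genes with the fewest counts in CL2122. vit-4 (WBGene00006928, chromosome X from 3558839 to 3563974) had 15899.8 normalized counts in GMC101 against 87.3 in CL2122, 182-fold higher, vit-3 beside it was 44.2-fold higher and vit-1 17.6-fold higher. The most abundant member, vit-2, was not called, with 456688 in GMC101 against 295149 in CL2122 (log2 ratio 0.63). The vit genes are near-identical in parts and how reads that fit several genes were counted is not stated, so the split among vit-1 and vit-2 and among vit-3, vit-4 and vit-5 is uncertain. Of 12 intestinal marker genes, all measured and none at 0, 4 were higher and 2 lower. The median was 0.18 with 7 above 0, or -0.007 with 6 above 0 with scaling to total reads. Their sum was 0.396% of reads in GMC101 against 0.533% in CL2122. That sum rests largely on 2 of the markers, asp-1 and cpr-1, which changed by -1306 and -559 CPM. The part of the markers in the yolk result was not tested.

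Sperm genes were also higher, though at low levels. Major sperm proteins form the cytoskeleton of the crawling sperm and signal to the oocyte. All 26 measured msp genes, of 30 in the table, were called higher, with log2 ratios within 2.20 to 3.26 and a median of 2.52. Their sum over the 30 genes was 274 CPM in GMC101 and 54.7 CPM in CL2122. msp genes are almost identical to each other, so values of single members are uncertain, and those with low values in CL2122 passed the minimum through GMC101. Among 61 other sperm genes, 32 were measured, 18 were higher and none lower, with a median of 2.11, and of the 11 that reached a mean of 200 there were 3 higher, with a median of 0.56. Sperm-specific ssq-4 had 1109 normalized counts in GMC101 against 141 in CL2122 (log2 ratio 2.97), and msd-2, which encodes a protein with the same domain as the major sperm proteins, stood at 3.72. The Argonautes alg-3 and alg-4, which bind small RNAs during spermatogenesis, were higher by 1.83 and 1.79 on the log2 scale, the only members of 23 measured Argonautes that were called higher. nrde-3, a nuclear Argonaute of somatic cells, was the only one called lower (-1.05).

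Oocyte genes shifted less and together. Of the 45 oocyte and eggshell genes, none was called in either direction, yet all 45 lay above 0 (43 with scaling to total reads), with a median of 0.58. The yolk receptor gene rme-2 stood at 0.90 and the eggshell gene cbd-1 at 0.72. Of 11 germ line marker genes, all measured, none was called, 10 lay above 0 (9 with scaling to total reads), and their sum was 5863 CPM in GMC101 and 4514 CPM in CL2122. Their part in the sperm and oocyte results was not tested. Of 72 genes of cell division and DNA replication and 41 of meiosis, none was called.

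Many cuticle collagens of the col series were higher. The epidermis secretes them to build the cuticle. Of 148 col genes, 63 were measured, 34 of these were higher and 4 lower, with a median of 1.27, and the list made up 1.47% of reads in GMC101 against 0.276% in CL2122. The median depended on the minimum level, at 2.49 for the 37 that reached a mean of 200 (29 higher, 1 lower) and 0.42 where a mean of 10 sufficed (42 higher, 11 lower). col-93 (WBGene00000668, chromosome III from 10984555 to 10985609) had 17613 normalized counts in GMC101 against 83.5 in CL2122, a log2 ratio of 7.72 [7.42 to 8.04], and its neighbor col-94 had 1497 and 30.4. col-101 was 61.5-fold, col-80 59.4-fold and col-160 28.7-fold higher. The adult collagen col-19 had 16411 in GMC101 against 1373 in CL2122, 11.9-fold higher. The near-identical col-119 and col-122 had equal ratios, 2.32 each, and the split of reads between them is uncertain. The 4 lower genes, col-89, col-121, col-97 and col-14, all lay between -1.21 and -1.02.

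The collagens named for body shape did not follow. These dpy, sqt, rol, bli, lon and ram collagens build the furrows and struts of the larval and adult cuticle. All 12 measured members of 20 lay below 0, with a median of -0.60, and dpy-2 was called lower (-1.02). Genes of molting and cuticle assembly had a median of -0.22, with 3 of 47 higher and 9 lower, and of -0.70 for the 26 with a mean of at least 200 and -0.57 for the 80 with at least 10. Called lower among them were cutl-13 (-2.09) and cutl-8 (-1.59), which encode cuticlin-like proteins, fbn-1 (-1.15), a fibrillin-like matrix gene, and nhr-25 (-1.12), a nuclear receptor needed for molting. phy-3 was called higher, but its annotated position overlaps that of the troponin gene tni-3, so its reads are uncertain. Hedgehog-related genes, which encode secreted proteins mostly of epidermal cells, were listed together with patched-related genes. Of 34 measured members of this joint list 6 were higher (17.6%) and 7 lower (20.6%). The median was -0.16, or -0.39 for the 63 with a mean of at least 10. Of 19 measured ptr genes, of the patched-related family, none was higher and 3 were lower, with a median of -0.39. grd-3 was 37.9-fold higher, at 1440.2 normalized counts in GMC101, and its neighbor grd-10 (3.32) and grd-5 (3.46) rose as well. wrt-10 fell, with 635 in GMC101 against 2027 in CL2122 (-1.67). Of 11 epidermal marker genes 8 were measured, 3 of them higher (col-19, grd-10 and col-10) and 1 lower (che-14), so the markers and these lists share members.

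The gene whose counting interval lay farthest above 0 was acdh-1, the acyl-CoA dehydrogenase that opens the propionate shunt. Worms use this route to break down propionate when vitamin B12 is short, since the canonical route needs B12 as a cofactor. acdh-1 (WBGene00016943, chromosome I from 6497436 to 6499560) had 9770.4 normalized counts in GMC101 against 39.9 in CL2122, 245-fold higher (log2 ratio 7.94). The lists of propionate, methionine cycle and B12 response genes were drawn up after the values were seen. Of the 5 shunt enzymes, 3 were higher and none lower. The hydroxypropionate dehydrogenase gene hphd-1 had 2909 in GMC101 against 579 in CL2122 (2.33), and the enoyl-CoA hydratase gene ech-6 had 6557 and 2760.2 (1.25). The hydrolase gene hach-1 (0.56) and the semialdehyde dehydrogenase gene alh-8 (0.25) were not called. acdh-2, a paralog of acdh-1, was 7.62-fold higher from a low level. None of the 6 genes of the canonical route was called, and their log2 ratios ran from -0.16 to 0.47.

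Few genes of the methionine and S-adenosylmethionine cycle, the other pathway that needs B12, were called. Of 15 genes 2 were higher (13.3%, beside 6.29% over all genes) and 1 lower (6.67%, beside 9.41%), with a median of 0.48. Methionine synthase, metr-1, had 11787 normalized counts in GMC101 against 4806 in CL2122 (1.29 [1.25 to 1.34]). The S-adenosylmethionine synthetase gene sams-1 (0.97), the folate reductase gene mthf-1 (0.72) and the methionine synthase reductase gene mtrr-1 (0.70) were below the threshold. cbl-1, of the cystathionine lyase family, was higher (1.39). cbs-1, which draws homocysteine out of the cycle, was lower, with 605 in GMC101 against 1280.5 in CL2122 (-1.08). The nuclear receptors known to act in these responses differed. nhr-114 had 1004 normalized counts in GMC101 against 317 in CL2122 (1.66) and nhr-68 had 954 and 352 (1.44), while nhr-10 had 674 and 840.0 (-0.32) and was not called. Also chosen after their values were seen, folt-2, of the folate carrier family and in the stretch of chromosome V described later, was 30.2-fold higher and the ABC transporter gene pmp-5 29.4-fold higher.

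**Figure D2:**
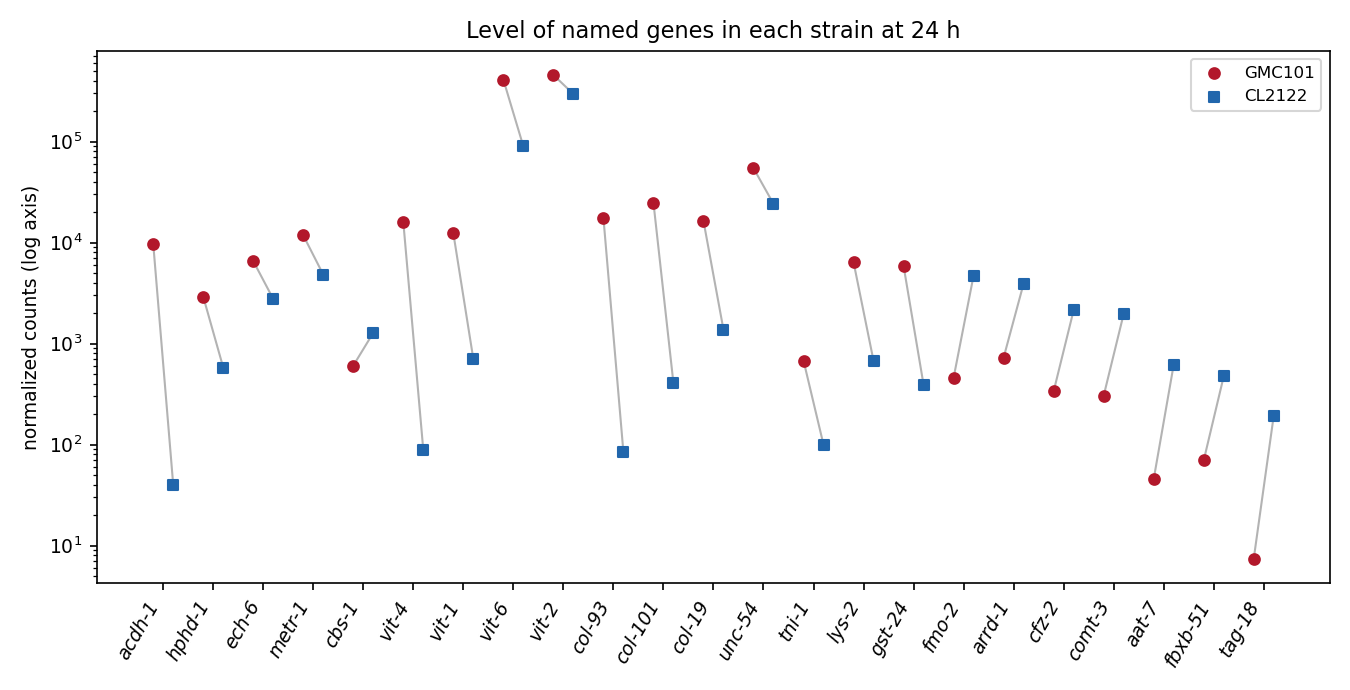
Normalized counts in GMC101 (circles) and CL2122 (squares) at 24 h for 23 named genes, on a log axis, with a line joining the strains. acdh-1, vit-4 and col-93 stand furthest apart, vit-2 and unc-54 are abundant in both strains, and fmo-2 to tag-18 slope the other way.

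Lists of innate defense genes differed in direction. C-type lectins are secreted sugar-binding proteins, many of them induced by microbes, and of 216 genes 80 were measured, 25 higher and 11 lower, with a median of 0.50, or 0.27 with scaling to total reads. clec-85 had 4112 normalized counts in GMC101 against 430.0 in CL2122 (3.26), clec-41 had 4120.3 and 769 (2.42), and clec-45 was 22.5-fold higher. clec-209 had 389 reads in GMC101 against 0 in CL2122, although it lies in a stretch of chromosome V where most genes were lower. With the 0 set to 3 reads it was 144-fold higher (7.17), and the lower end of its counting interval was 6.86. clec-70 and its neighbor clec-69 were lower (-1.79 and -2.31). Among lysozymes, saposins and antimicrobial peptides 13 of 48 were higher and 2 lower, with a median of 0.33, or 0.14 with scaling to total reads. The lysozyme gene lys-2 was 9.48-fold higher and the invertebrate-type lysozyme genes ilys-5 and ilys-3 7.88-fold and 4.51-fold higher. Those lower, nlp-34 and nlp-31, encode antimicrobial peptides and lie in a stretch of chromosome V described later, and the 41 members outside it had a median of 0.53.

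Of the irg, dod and pud genes, which are named for responses to infection or to the insulin pathway, 9 of 19 measured were higher and 4 lower, with a median of 0.17, which was -0.017 with scaling to total reads, -0.22 with a minimum of 10 counts and 1.81 for the 14 genes outside that stretch. irg-4 had 691 reads in GMC101 against 1 in CL2122 (9.58 [7.10 to 14.89]). T24B8.5, also named sysm-1, a peptide gene used as a reporter of the p38 immune pathway, had 1192 reads in GMC101 against 7 in CL2122, a log2 ratio of 7.56 [6.51 to 8.88]. dod-19 (2.66) and dod-24 (2.64) rose alike. irg-5, irg-2, irg-1 and pud-4 were lower, by 2.13 to 1.23 on the log2 scale, and irg-1 and pud-4 lie in the stretch. pals genes belong to the response to intracellular pathogens, and none of 15 measured was higher and 5 were lower, with a median of -0.47, and of the 13 outside the stretch 3 were lower. The 5 with a mean of at least 200 had a median of -1.20. Those lower included pals-22 (-1.23) and pals-25 (-1.20), a neighboring pair that sets the level of this response. drd-50, one of the genes farthest above 0, had 341 reads in GMC101 against 1 in CL2122 (8.56 [6.08 to 13.87]).

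In body wall muscle, the tissue that makes Aβ, sarcomere genes were higher. Of 28 genes, all measured, 13 were higher and none lower, with a median of 0.93, and 27 lay above 0 (24 with scaling to total reads). unc-54, whose promoter drives the transgene, had 54530.4 normalized counts in GMC101 against 24168 in CL2122 (1.17 [1.15 to 1.20]). The minor myosin myo-3, which does not share that promoter, stood at 1.24 and paramyosin, unc-15, at 1.36. Farthest up were thin filament genes, with the troponin I gene tni-1 at 2.77, the calponin gene cpn-3 at 1.80, the troponin T gene mup-2 at 1.68 and the cofilin gene unc-60 at 1.48. The giant titin-like kinase unc-22 did not differ beyond counting error, with 3065 in GMC101 against 3060.2 in CL2122. In the pharynx, a separate muscle with its own myosins, none of 6 measured genes was called and the median was 0.03, or -0.16 with scaling to total reads. mtl-2, whose promoter drives the GFP marker of both strains, was higher (1.37 [1.10 to 1.65]), as was its paralog mtl-1 (2.52), the only called genes of 26 of the metal response.

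**Figure D3:**
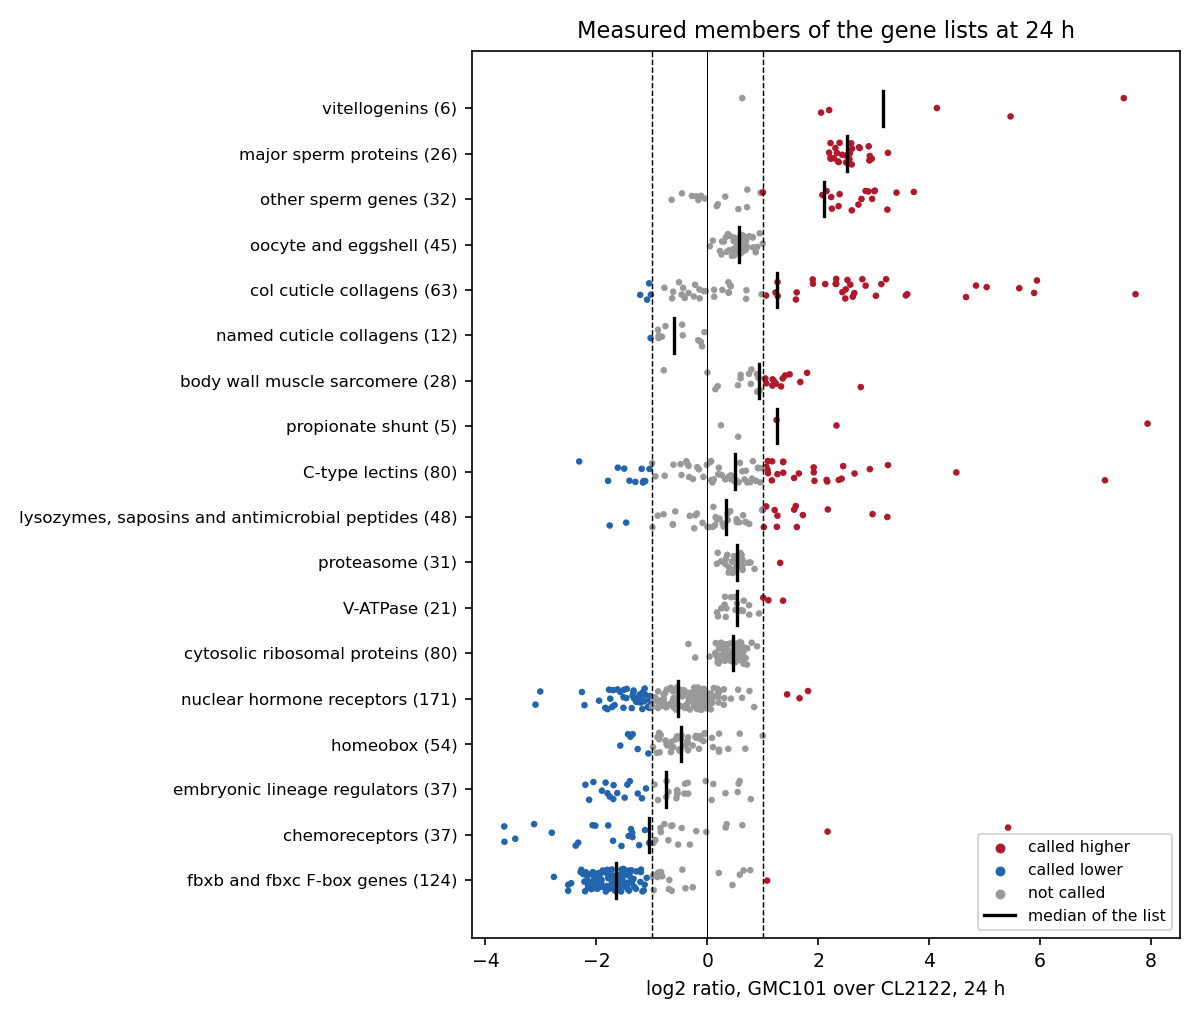
Log2 ratio of GMC101 over CL2122 at 24 h for each measured member (dot) of 18 gene lists, with the number measured in brackets, the list's median as a bar and dashed lines at a ratio of 2. Called-higher members are red and called-lower members blue. Oocyte, proteasome and ribosomal genes form narrow groups above 0 with few or no calls, and the fbxb and fbxc genes form the clearest group below it.

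The lower genes were spread unevenly over the genome. By chromosome the share of lower genes was 13.7% on chromosome II and 13.9% on chromosome V, and at most 10.2% on the other nuclear chromosomes. On chromosome V, genes that start between 2000001 and 4000000 were lower together, 112 of 191 measured (58.6%) with a median of -1.24. At 8 h 188 of these genes had a ratio, with a median of -1.10. In the rest of the chromosome 9.86% of 2100 genes were lower at 24 h. F22F7.7 had 721 normalized counts in GMC101 against 8921 in CL2122 (-3.63), and T22F3.11 had 2928 and 22120.0 (-2.92), the first of these chosen after its values were seen. Lists with several members in the stretch are also given without it. At the left end of chromosome II, up to position 4000000, 198 of 579 measured genes were lower (34.2%), and without F-box and BATH genes 124 of 450 (27.6%). The rest of that chromosome had 6.42% of 1619 genes lower. Unlike the stretch on chromosome V, the left end of chromosome II had a median of -0.01 at 8 h, over the 476 of its 579 genes with a ratio then. The 2 times thus cover different sets of genes there. Of 82 measured fbxb and fbxc F-box genes on the whole chromosome, 38 had a ratio at 8 h.

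**Figure D4:**
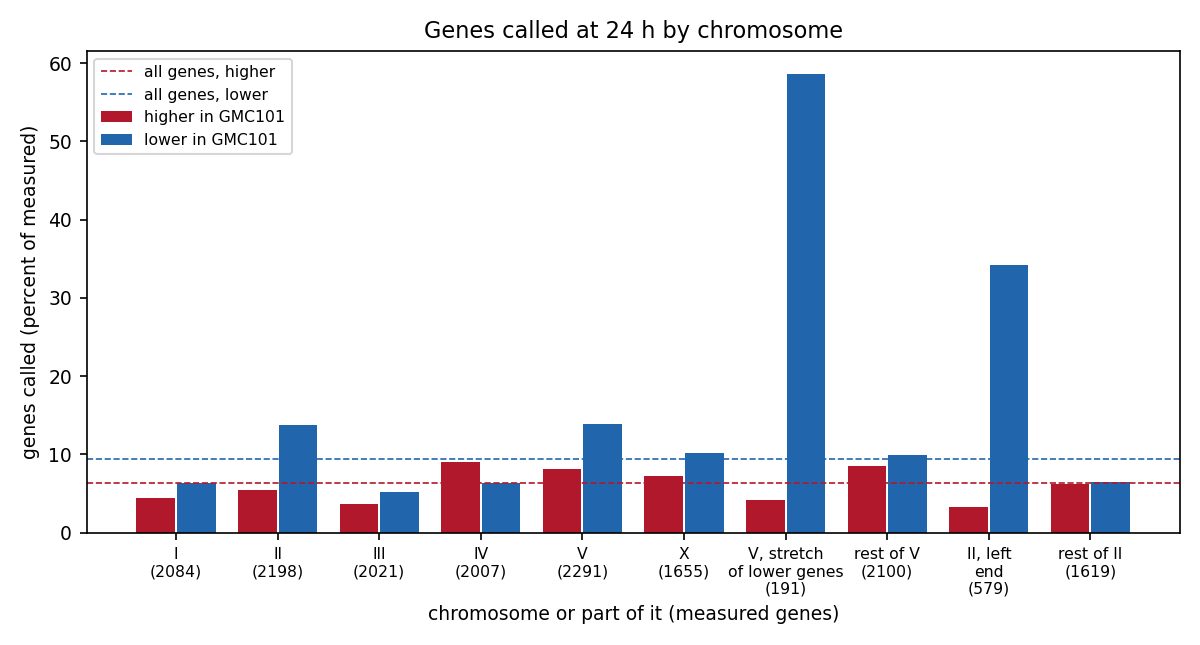
Share of measured genes called higher (red) and lower (blue) in GMC101 at 24 h by chromosome and for parts of chromosomes V and II, with the number measured in brackets and the shares over all genes, 6.29% and 9.41%, as dashed lines. The stretch of chromosome V reaches 58.6% lower and the left end of chromosome II 34.2%, while the rest of each stands at 9.86% and 6.42%.

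Many of the lower genes were F-box genes. F-box proteins choose substrates for ubiquitin ligases, and worms carry a very large, fast-changing set of them, mostly of unknown targets. Of 278 measured genes of the F-box and BATH list, 43.9% were lower and 1.80% higher, with a median of -0.83. The members differed sharply by subfamily. Of 124 measured fbxb and fbxc genes, 105 were lower (84.7%) and 1 was higher, with a median of -1.65. Of 99 fbxa genes 11 were lower and 4 higher, with a median of -0.23, and of 35 bath genes 3 were lower, with a median of 0.22. The falls were not limited to the left end of chromosome II. On chromosome II as a whole 71 of 82 fbxb and fbxc genes were lower, and on other chromosomes 34 of 42. Summed over all 162 fbxb and fbxc genes the level was 933 CPM in GMC101 and 2724 CPM in CL2122. fbxb-51 had 69.5 normalized counts in GMC101 against 473 in CL2122 (-2.77), fbxc-22 had 100.1 and 549 (-2.45), and fbxc-25 had 274 and 1272 (-2.22). fbxb-81 on chromosome III stood at -2.51. Many of these genes are close copies of each other, so single values are uncertain.

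Transcripts of the sdz family, known from the early embryo, were lower as well. Of 37 measured genes on a list of embryonic lineage regulators and sdz genes, 16 were lower and none higher, with a median of -0.74. Most of these were sdz genes, whose transcripts depend on the maternal factor SKN-1 at the start of embryonic transcription, with 13 of 16 measured lower and a median of -1.66. sdz-28 had 472 normalized counts in GMC101 against 1762 in CL2122 (-1.90), sdz-4 stood at -2.20, and sdz-10 had 142 and 590.4 (-2.05). Without the sdz genes 3 of 21 were lower (14.3%, beside 9.41% over all genes) and the median was -0.41. lag-2, a Notch ligand, was lower (-2.13) and lies in the stretch on chromosome V. Homeobox genes, which pattern the embryo and specify neurons, had a median of -0.47. Of 54 measured, 6 were lower (11.1%, near the 9.41% over all genes) and none higher. Called lower among them were ceh-86 (-1.57), vab-15 of the Msx class (-1.43), ceh-43, the Distal-less homolog (-1.39), and ceh-40 (-1.34).

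Nuclear hormone receptors and chemoreceptors leaned the same way. Of 171 measured receptors of the nhr list 45 were lower and 3 higher, with a median of -0.52. In the chromosome V stretch lay 22, of which 19 were lower, and of the 149 elsewhere 26 were lower, with a median of -0.38. nhr-221 (-3.01), nhr-187 (-2.21) and nhr-56 (-1.95) lie in the stretch, and nhr-246 (-3.10) does not. The higher receptors were nhr-114 and nhr-68, described with the propionate genes, and nhr-112 (1.82). Chemoreceptor genes are each expressed in few neurons, and of 996 only 37 reached the minimum level. Of these 19 were lower and 2 higher, with a median of -1.05, and of the 32 outside the stretch 15 were lower, with a median of -0.95. Only 6 reached a mean of 200, 1 of them lower and 1 higher, with a median of -0.09. The lower genes named next reached the minimum through CL2122. srj-9 had 28.4 normalized counts in GMC101 against 359.7 in CL2122 (-3.66), sri-16 had 15.8 and 199 (-3.66) and srz-97 had 13.7 and 151 (-3.46). srh-237 went the other way, 42.9-fold higher. It starts just after the end of T05E12.6 on chromosome V, a gene named here after its value was seen, which stood at 6.85, and how reads of neighboring genes were assigned is not stated.

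A handful of single genes fell furthest. tag-18, a gene of unknown role, had 7 reads in GMC101 against 203 in CL2122 (-4.71 [-6.04 to -3.64]) and was lower at 8 h too. ZC204.12, noted after its value was seen, stood at -4.83 at 24 h and -5.07 at 8 h. The amino acid transporter gene aat-7 had 45.3 normalized counts in GMC101 against 615 in CL2122 (-3.76). fmo-2 (WBGene00001477, chromosome IV from 10682524 to 10684385), a flavin monooxygenase known for its induction by low oxygen and by food shortage, had 457 in GMC101 against 4708 in CL2122, 10.3-fold lower (-3.36 [-3.51 to -3.22]). The arrestin-domain gene arrd-1 stood at -2.44 and apc-10, a subunit of the anaphase-promoting complex, at -2.88. Also among the farthest, both the Frizzled receptor gene cfz-2 (-2.67) and the methyltransferase gene comt-3 (-2.69) lie in the chromosome V stretch. Of 44 measured genes of Wnt and TGF-beta signaling 5 were lower (11.4%, near the 9.41% over all genes) and 1 higher. Besides cfz-2 the Wnt ligand gene cwn-2 was lower (-1.29).

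Lists of detoxification genes are given beside all measured genes, of which 6.29% were higher and 9.41% lower. Cytochromes P450, which oxidize foreign and internal small molecules, had 3 of 48 higher (6.25%, near the share over all genes) and 13 lower (27.1%), with a median of -0.38. Of these, 14 lie in the chromosome V stretch, 8 of them lower. Without it 5 of 34 were lower, 3 were higher and the median was 0.07. cyp-13A8 (-2.47) and cyp-13A5 (-1.79) were lower outside the stretch, and cyp-13A2 of the same cluster was higher (1.91). Glucuronosyltransferases, which add sugar to such molecules, had 13 of 52 higher (25%) and 5 lower (9.62%, near the share over all genes), with a median of -0.12. ugt-48 had 1654 normalized counts in GMC101 against 279 in CL2122 (2.57), and ugt-64, in the stretch, had 647 and 2039.8 (-1.66). Glutathione transferases had 6 of 30 higher (20%) and 5 lower (16.7%), with a median of 0.14. gst-24 had 5877 in GMC101 against 391 in CL2122 (3.91), and gst-31 was lower (-2.56). None of 15 superoxide dismutase, catalase and peroxiredoxin genes was called.

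Lists of genes that make, fold and degrade proteins differed in how many members were called, and they did not share a direction. Over all measured genes 6.29% were higher and 9.41% lower. Of 20 measured heat shock genes 5 were higher (25%) and none lower, with a median of 0.61. hsp-70, an inducible cytosolic chaperone, had 4802 normalized counts in GMC101 against 923 in CL2122 (2.38), and hsp-60, the mitochondrial chaperonin, 11435 and 4805 (1.25). All 31 proteasome genes lay above 0 (29 with scaling to total reads), with a median of 0.53 and 1 gene, the core subunit gene pas-2, called (1.31). Of 21 V-ATPase genes all lay above 0 (20 with scaling to total reads), with a median of 0.54. Of these, 3 were called higher (14.3%), vha-6 (1.36), vha-3 (1.10) and vha-5 (1.01). Of 80 measured ribosomal protein genes 78 lay above 0 (71 with scaling to total reads) with none called, a median of 0.46 and 11.5% of reads in GMC101 against 9.74% in CL2122. Over all 148 measured genes with a mean of at least 20000 counts, 128 lay above 0 and the median was 0.41. Mitochondrial ribosomal genes (0.22), respiratory chain genes (0.29) and glycolysis and gluconeogenesis genes (0.45) had no called member, and with scaling to total reads these medians were 0.024, 0.10 and 0.25. Of 43 chaperonin, prefoldin and J-domain genes none was called, and 33 lay above 0, or 17 with scaling to total reads. Endoplasmic reticulum stress genes had a median of -0.21 with 9 of 20 above 0, and autophagy genes of -0.29 with 5 of 29 above 0. Of the autophagy genes 2 were called lower (6.90%) and none higher. These were epg-2 (-1.55), an adaptor for the clearance of germ granules, and atg-2 (-1.09). Lysosomal proteases and lipases had 7 of 26 higher (26.9%) and 3 lower (11.5%). The aspartic protease genes asp-13 and asp-12 were 19.1-fold and 7.02-fold higher, while asp-8 (-1.86), in the chromosome V stretch, the lipase gene lipl-7 (-1.19) and cpr-1 were lower.

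Apart from the chemoreceptors, lists of neuronal genes gave few calls. None of 12 neuronal marker genes, all measured, was called, nor any of 30 FMRFamide-like peptide genes, and of 55 other neuropeptide genes 3 were higher and 2 lower. Of 36 genes of synaptic release and transmitter synthesis 2 were lower (5.56%, beside 9.41% over all genes) and none higher. unc-10, which encodes the RIM protein that primes synaptic vesicles, had 177 normalized counts in GMC101 against 592 in CL2122 (-1.74), and the tyrosine hydroxylase gene cat-2 of dopamine neurons stood at -1.06. Of 45 receptors and channels of the neuromuscular junction 4 were lower (8.89%, near the share over all genes) and none higher. The acetylcholine receptor genes acr-17 (-2.06), in the chromosome V stretch, and unc-38 (-1.47) were among them.

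Most genes called at 24 h were short of a ratio of 2 at 8 h. Each time has its own table, normalized apart and with no sample in common, so time and any batch cannot be told apart and the difference between times was not tested. Of the 772 genes higher at 24 h, 767 had a ratio at 8 h, with a median of 0.11, and 47 of them were at or past a ratio of 2 in the same direction and 28 in the other. Of the 1155 lower genes, 947 had a ratio at 8 h, with a median of -0.18, and 166 were past the ratio in the same direction and 58 in the other. Of those 166 genes, 71 lie in the chromosome V stretch, where 108 of the 188 genes with an 8 h ratio were lower by a ratio of 2 at 8 h. Outside it 257 of all 11832 measured genes with an 8 h ratio were lower by that ratio at 8 h, and 95 of these were lower at both times. The matching base for the higher side at 8 h was not counted. Several lists stood far from 0 at 24 h and near it or on its other side at 8 h. Medians at 24 h and 8 h were 3.17 and -0.62 for the vitellogenins, 1.27 and -0.31 for the col collagens, and 0.93 and -0.14 for muscle. Of the F-box and BATH genes 212 of 278 had a ratio at 8 h, and these had medians of -0.47 at 24 h and -0.08 at 8 h. Of the fbxb and fbxc genes 61 of 124 had one, with medians of -1.43 at 24 h and -0.10 at 8 h. acdh-1 stood at 7.94 at 24 h and 0.25 at 8 h. A few genes were high at both times, such as hrg-7 with 2.27 at 24 h and 1.92 at 8 h, asp-12 with 2.81 and 2.97, and hsp-70 with 2.38 and 5.72. clec-70 changed sides, at -1.79 at 24 h and 5.85 at 8 h.

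**Figure D5:**
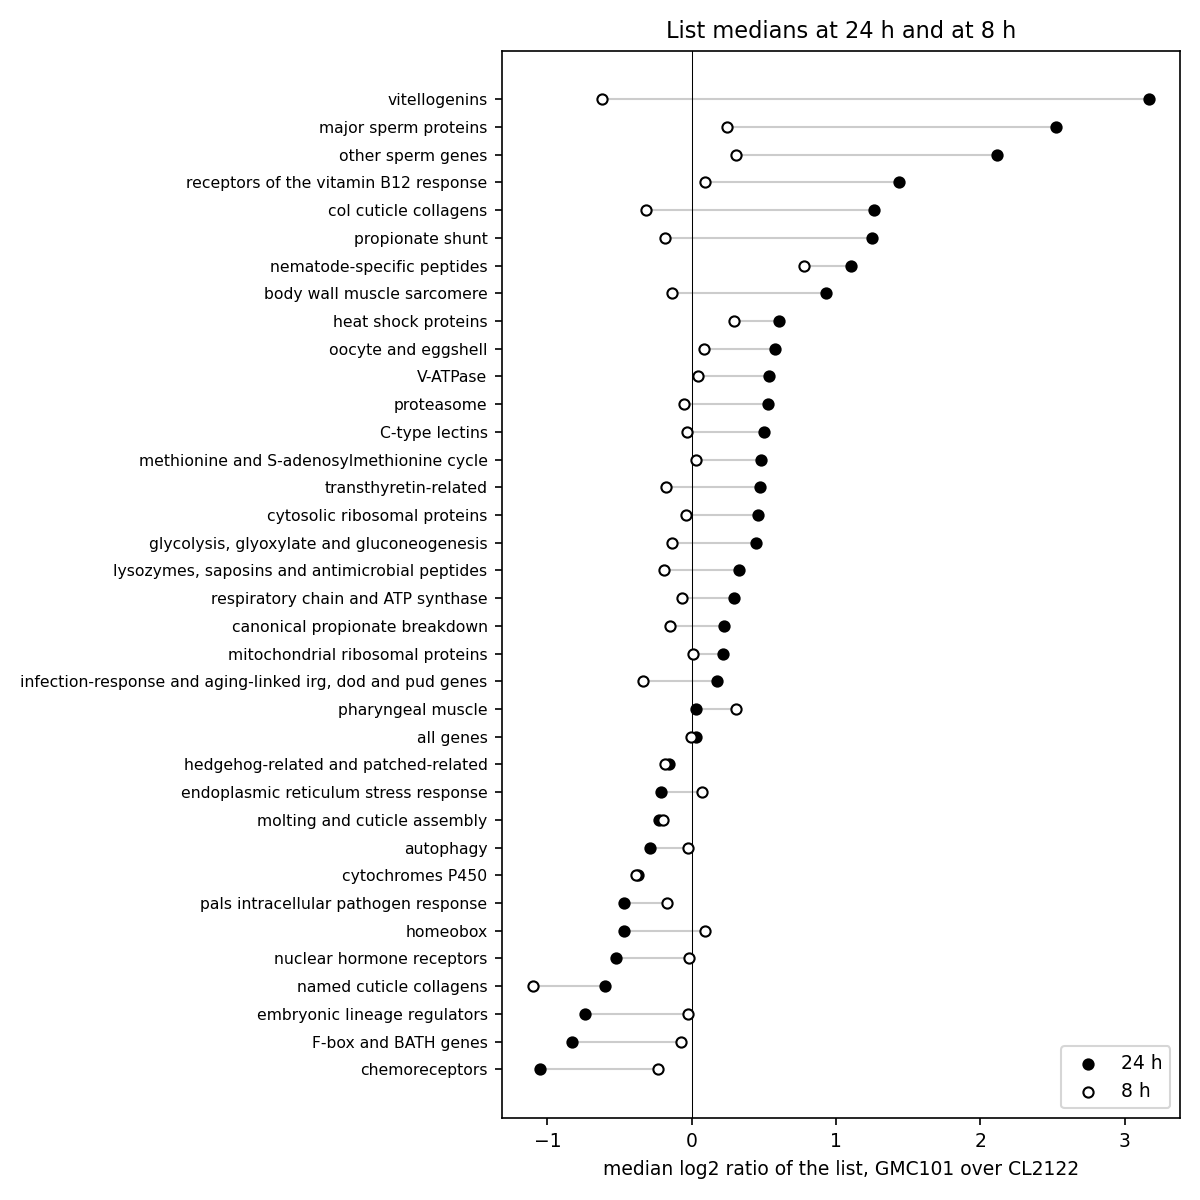
Median log2 ratio of GMC101 over CL2122 at 24 h (filled) and at 8 h (open) for 35 gene lists and for all genes, where the 8 h median covers only the members with a ratio at 8 h. The vitellogenins stand at 3.17 at 24 h and -0.62 at 8 h, whereas the named cuticle collagens lie below 0 at both times, at -0.60 and -1.10.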

How the data were processed

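RNA of whole worms was sequenced from NEBNext Ultra libraries as paired reads. The submitters' processing notes name HISAT2 2.05, StringTie 1.33 and DESeq2 without their roles, and the genome build is not given in the sources used here. The deposited signal values are normalized read counts per gene, 1 column per strain and time. The authors' tables do not state how the labelled samples were combined. Low values rose in equal steps, and with an intercept per column all values came out as whole reads (100%, tolerance 0.05). The deposited columns of fold changes and p-values hold the authors' own comparison of the strains and were not used.

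Ratios are of normalized counts, and values under 1e-06 were taken as 0. Genes with a mean of at least 50 were called at a ratio of 2. Counting intervals are 95% Clopper-Pearson intervals from the recovered reads and cover counting error only. With 1 column per strain no test between strains was possible. Of 21915 gene IDs, 21749 were found in Ensembl WBcel235, all at overlapping positions, and coordinates are those of the table. The 55 gene lists, 6 marker lists and the genes compared were chosen with earlier results of these data known. Genes named were drawn from the 12 per direction with the interval farthest from 0 and the first 4 called members of a list per direction. Others came from lists with up to 8 measured members where the text turned on them, and from the 10 largest gains and losses in CPM. unc-54, mtl-2 and some of the markers were named as well. Genes named beyond this (rme-2, cbd-1, myo-3, unc-15, unc-22, F22F7.7, T05E12.6, ZC204.12, folt-2, pmp-5, the remaining col, cutl and asp genes, and the members of 4 added lists) were chosen after their values were seen.

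Alternatives were scaling by total reads or by DESeq2 1.42.0 size factors, other minimum levels, ratios and pseudocounts, protein-coding genes only, and edgeR 4.0.16 exact tests with an assumed spread. The calculations, run in Python 3.11.15 (numpy 2.4.6, pandas 2.3.3, scipy 1.17.1) and R 4.3.3, were tested on simulated data.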

Additional observations from a re-analysis of the deposited data

How the results depend on the processing

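The counts of genes called followed the minimum level and the ratio. With a mean of at least 10 there were 3502 genes called (1497 higher, 2005 lower), with at least 200 there were 1017 (410 higher, 607 lower), and with no minimum 5161 (2127 higher, 3034 lower). At a ratio of 1.5 there were 3855 (1583 higher, 2272 lower) and at a ratio of 4 there were 463 (303 higher, 160 lower). With the counting interval wholly past 2 there were 1239 (555 higher, 684 lower). An edgeR exact test with an assumed coefficient of variation of 0.4 called 51 (43 higher, 8 lower), and with 0.2 it called 1915, so the counts of such a test rest on the spread assumed. Without the chromosome V genes that start between 2 and 4 Mb, an alternative added after seeing the data, there were 1807 (764 higher, 1043 lower). Medians near 0 changed sign. Scaling to total reads gave -0.17 for all genes, -0.16 for pharyngeal muscle and -0.017 for the irg, dod and pud genes. A minimum of 10 gave -0.00042 for all genes and -0.22 for the irg, dod and pud genes, and leaving out the chromosome V stretch gave 0.069 for the cytochromes P450. The cause of these changes was not tested. No paired analysis was possible because the columns carry no replicates, and for the same reason leaving out a replicate was not run. Promoter and protein sequences were not analysed here.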

Other observations

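Small secreted proteins of families with little known function also differed. Of 44 measured transthyretin-related genes 13 were higher and 2 lower, with a median of 0.47. On the log2 scale ttr-31 stood at 2.39 and ttr-50 fell to 4345 normalized counts in GMC101, against 12233 in CL2122 (-1.49). Nematode-specific peptide genes had 12 of 16 higher and none lower, with a median of 1.11 at 24 h and 0.78 at 8 h. nspc-18 stood at 3.17 at 24 h and 2.49 at 8 h. Among galectins, which bind galactose-containing sugars, lec-9 (2.54) and lec-6 (1.96) were higher while lec-2 was lower (-1.34).

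Insulin-like peptides had 3 of 14 measured members lower and none higher, with ins-34 at -1.90. Of 65 genes of fatty acid activation, oxidation and binding 9 were higher (13.8%, beside 6.29% over all genes) and 3 lower. Their median was 0.06, or -0.13 with scaling to total reads. Of the 54 with a mean of at least 200, 4 were higher and 3 lower, with a median of -0.09. acox-1.3, a peroxisomal acyl-CoA oxidase, stood at 3.48, and fat-7, a stearoyl-CoA desaturase, had 1028 normalized counts in GMC101 against 357 in CL2122 (1.53). Annotated pseudogenes had 9 of 298 measured higher and 75 lower, with a median of -0.21.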
